A study of Mus musculus with 12 samples.

Results

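Transcript levels of 10 genes of the fibroblast growth factor (FGF) family and its receptors were examined in mouse adipose tissue. They were the ligand genes Fgf1, Fgf2, Fgf7, Fgf9, Fgf10 and Fgf21, and Fgf13, which encodes an intracellular factor of the family. The others were the receptor genes Fgfr1 and Fgfr2 and the co-receptor gene Klb. All 10 were picked by gene symbol from the 24890 features of the deposited tables, and each symbol stood at 1 locus. RNA sequencing libraries were made from male mice of the strain C57BL/6J, 18 weeks old, fed normal chow and given no treatment. Epididymal adipose tissue (EAT, a visceral depot) and inguinal adipose tissue (IAT, a subcutaneous depot) were each separated with collagenase I into adipocytes and stromal vascular cells (SVCs), the mixed remainder of the tissue. This gave 4 groups of depot and fraction with 3 libraries in each. Since nothing in the labels ties a library to its own mouse or to a pool, p-values measure the spread among these libraries, which may be technical.

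In the GRCm38 coordinates of the tables, Fgf1 lies at chr18:38838673-38918699, Fgf2 at chr3:37348653-37404830, Fgf7 at chr2:126034658-126091185, Fgf9 at chr14:58072686-58112720, Fgf10 at chr13:118714699-118792573, Fgf13 at chrX:59062146-59585572 and Fgf21 at chr7:45613890-45615490. Fgfr1 lies at chr8:25518759-25575718, Fgfr2 at chr7:130162451-130266808 and Klb at chr5:65348411-65384003.

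FGF ligands of the paracrine kind bind cell surface receptor tyrosine kinases together with heparan sulfate, and signal through the adaptor FRS2 to RAS, ERK and PI3 kinase. Endocrine FGFs, among them FGF21, bind heparan sulfate weakly and need a Klotho protein as co-receptor, which for FGF21 is beta-Klotho, the product of Klb. In adipose tissue the family is known for FGF1 and FGF10 in the growth and remodelling of the depot and for FGF21 as a regulator of glucose and lipid use, while FGF13 belongs to the intracellular FGF homologous factors that bind sodium channels.

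Levels are in FPKM, a count of fragments scaled by the length of the transcript and the depth of the library, so that genes can be set side by side. Differences are on the scale of log2(FPKM + 1), which understates the change of genes under a few FPKM, and are given with the standard error (SE) and the adjusted p of limma over 13175 tested features. A gene was called where the adjusted p was under 0.05. The fractions were checked by their markers. The 6 adipocyte markers summed to between 8155.5 and 10035.8 FPKM in the adipocyte libraries and to between 76.3 and 156 FPKM in the SVC libraries, while 8 fibroblast and progenitor markers summed to between 234 and 309 FPKM in adipocytes and between 4567.8 and 5474.7 FPKM in SVCs. A level of 1 FPKM was reached by 10726 to 12425 features per library, and libraries of a group correlated across features, which are not independent replicates, at r = 0.990 to 0.997. The lowest of these values, 0.990, was with EAT adipocyte replicate 1, in which features with under 2000 bases of exon lay higher than in replicates 2 and 3 (median log2 difference 0.32) and those with 8000 bases or more lay lower (-0.22).

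All 10 genes passed the filter of 1 FPKM in at least 3 of the 12 libraries. They fell into 3 patterns of fraction: Fgf10, Fgf13, Fgf21, Fgfr2 and Klb were higher in adipocytes than in SVCs of both depots, Fgf7 and Fgf9 were higher in SVCs of both depots, and Fgf1 and Fgfr1 were higher in SVCs of EAT and in adipocytes of IAT. Fgf2 was called in IAT alone, higher in adipocytes. Against SVCs 5 of the 10 were called higher and 4 lower in EAT adipocytes, where 83.8% of all tested features were called (31.1% higher and 52.7% lower). In IAT adipocytes 8 were called higher and 2 lower, where 83.7% of all features were called (29.8% higher and 53.9% lower). Between depots 1 of the 10 was called higher and 3 lower in IAT than in EAT adipocytes, against 37.6% of all features (10.3% higher and 27.3% lower). In IAT against EAT SVCs 2 were called higher and 4 lower, against 40.2% of all features (14.0% higher and 26.2% lower). No test set the family against the other features. In FPKM the median of all features was below 0 in each comparison, by 0.31 in EAT and 0.34 in IAT between fractions and by 0.10 in adipocytes and 0.06 in SVCs between depots. Higher calls made up 37.1% and 35.6% of the calls between fractions in EAT and IAT, and 51.1% and 51% after median-of-ratios scaling. Between depots they made up 27.5% of the calls in adipocytes and 34.8% in SVCs, and 49.2% and 49.5% after that scaling.

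**Figure D1:**
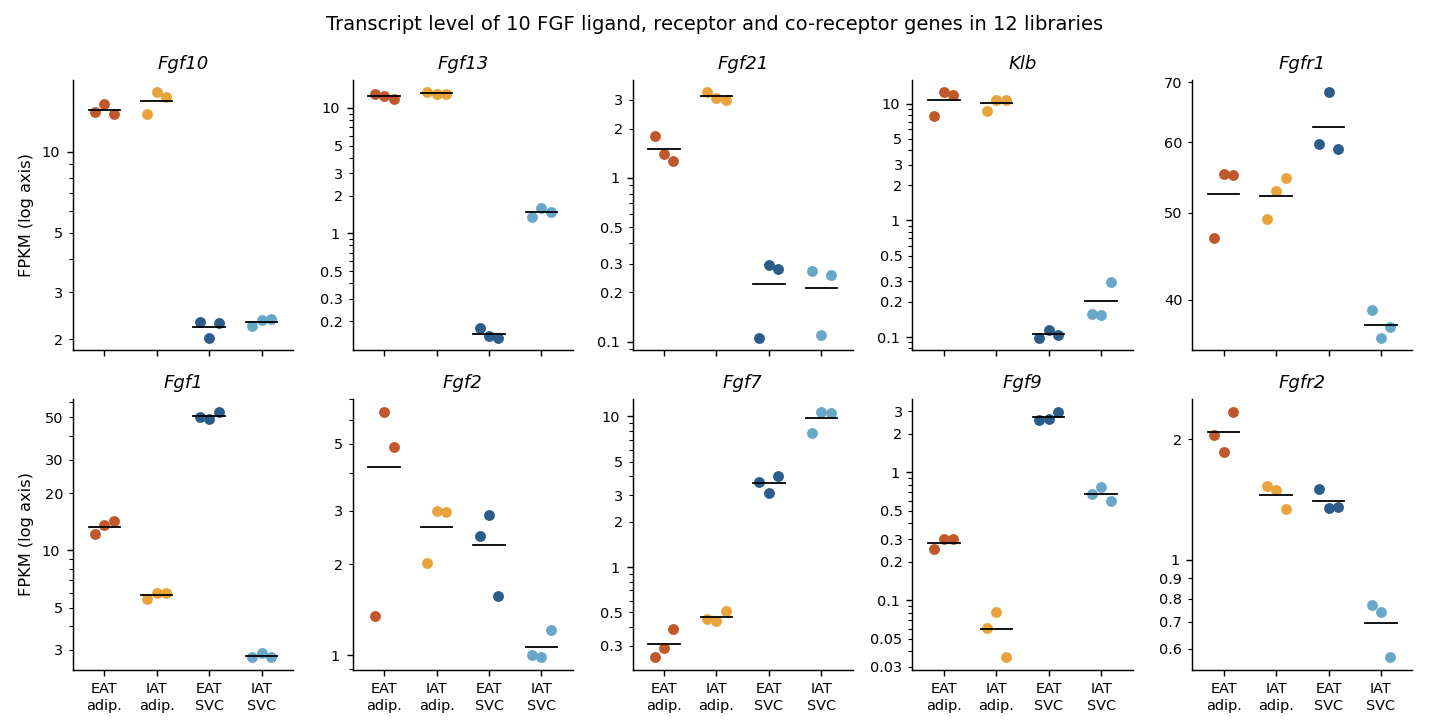
Level of each gene in FPKM on a log axis, with 1 point for each of the 12 libraries and a line at the mean of each group of 3. Fgf10, Fgf13, Fgf21 and Klb stood higher in every adipocyte library than in every SVC library, Fgf7 and Fgf9 stood lower, and Fgf1 was highest in the 3 EAT SVC libraries, at 48.9 to 53.6 FPKM.

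Fgf1, which encodes a ligand that binds every FGF receptor type, had the largest depot difference of the 10 genes in SVCs. In EAT SVCs it stood at 50.1, 48.9 and 53.6 FPKM, and in IAT SVCs at 2.76, 2.87 and 2.74 FPKM. In EAT adipocytes it stood at 12.2, 13.6 and 14.2 FPKM, and in IAT adipocytes at 5.54, 5.94 and 5.96 FPKM. No 2 groups overlapped, and the order was EAT SVCs, EAT adipocytes, IAT adipocytes, IAT SVCs. The mean was 18.2-fold lower in IAT than in EAT SVCs (log2 difference -3.77 ± 0.071 SE, adjusted p = 1.2e-12) and 2.3-fold lower in IAT than in EAT adipocytes (-1.07 ± 0.071, adjusted p = 2.1e-07). Between fractions the direction turned with the depot, at -1.86 ± 0.071 for adipocytes minus SVCs in EAT (adjusted p = 5.6e-11) and 0.85 ± 0.071 in IAT (adjusted p = 1.4e-07).

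Mesothelial cells, the lining of the visceral cavity and of the organs in it, are a possible part of EAT SVCs, and their markers followed the depot. The 9 mesothelial markers summed to between 471 and 538 FPKM in EAT SVCs, 2.88 and 3.88 FPKM in IAT SVCs, 21 and 23.8 FPKM in EAT adipocytes and 0.576 and 0.731 FPKM in IAT adipocytes. Of the 9, all were called lower in IAT in both fractions, and Upk1b and Wt1 were listed at or near 0 in each of the 6 IAT libraries. In EAT the median marker stood in adipocytes at 4.97% of its SVC level, whereas Fgf1 stood at 26.2% of its SVC level. In IAT, where the marker sum was under 4 FPKM, Fgf1 was 2.08-fold higher in adipocytes than in SVCs. The sums of the 7 macrophage markers were higher in EAT as well, at 198 to 250 FPKM in EAT and 41.2 to 57.6 FPKM in IAT adipocytes. In SVCs the sums were 1625.5 to 1711.4 FPKM in EAT and 1087.6 to 1217.5 FPKM in IAT. All 7 were called lower in IAT adipocytes. In IAT SVCs 5 were called lower, and C1qb and Fcgr1 were not called (log2 differences -0.40 and -0.02). The part of either cell type in the depot difference of Fgf1 was not tested. In bulk samples such as these, fewer cells of a type and less RNA per cell cannot be told apart.

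**Figure D2:**
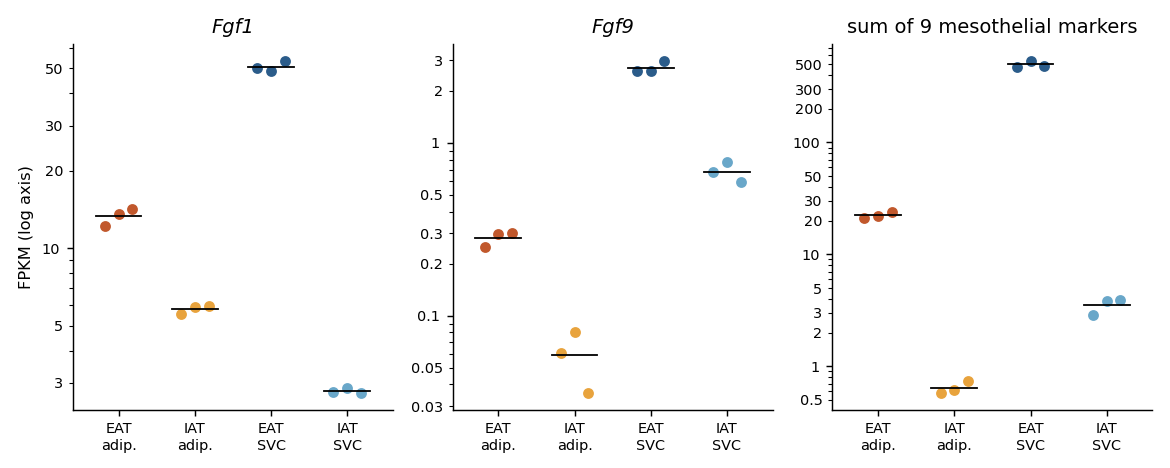
Level of Fgf1, level of Fgf9 and summed level of 9 mesothelial markers in FPKM on log axes, with 1 point per library and a line at the group mean. The marker sum was 471 to 538 FPKM in EAT SVCs and under 4 FPKM in IAT, while Fgf1 stayed at 5.54 to 5.96 FPKM in IAT adipocytes.

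Fgf9, which encodes a paracrine ligand with a role in mesenchymal and mesothelial tissues of the embryo, followed the same depot order in SVCs at a lower level. It stood at 2.59, 2.6 and 2.99 FPKM in EAT SVCs and at 0.674, 0.77 and 0.591 FPKM in IAT SVCs. In adipocytes it was under 1 FPKM in every library, at 0.25, 0.298 and 0.299 FPKM in EAT and 0.0609, 0.0809 and 0.0356 FPKM in IAT. The 4 groups did not overlap, with EAT SVCs highest and IAT adipocytes lowest. The mean was 4.02-fold lower in IAT than in EAT SVCs (log2 difference -1.15 ± 0.062, adjusted p = 1.3e-08). In adipocytes, where the mean was 4.77-fold lower in IAT, the depot difference of -0.28 ± 0.062 (adjusted p = 0.00407) rested on an estimated 28 to 31 fragments per EAT library and 4 to 10 per IAT library. SVCs were above adipocytes in both depots, with differences of -1.54 ± 0.062 in EAT (adjusted p = 8.5e-11) and -0.66 ± 0.062 in IAT (adjusted p = 3.8e-07). The mesothelial markers listed for Fgf1 moved with Fgf9 too, and their part was not tested.

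Fgf7, which encodes keratinocyte growth factor, a ligand made by mesenchymal cells for the epithelial form of FGFR2, was higher in IAT than in EAT SVCs. It stood at 7.78, 10.8 and 10.5 FPKM in IAT SVCs and at 3.68, 3.1 and 4.03 FPKM in EAT SVCs. In adipocytes it was at 0.451, 0.437 and 0.51 FPKM in IAT, from an estimated 28 to 35 fragments per library. In EAT adipocytes it was at 0.252, 0.29 and 0.39 FPKM, from an estimated 19 to 23 fragments per library. Every IAT SVC library was above every EAT SVC library, and every SVC library above every adipocyte library. The mean was 2.68-fold higher in IAT than in EAT SVCs (log2 difference 1.20 ± 0.110, adjusted p = 2.1e-06), and the depot difference in adipocytes did not pass the test (0.16 ± 0.110, 95% interval -0.08 to 0.40, adjusted p = 0.269). At a pseudocount of 0.1 the adipocyte difference was 0.47, with an adjusted p of 0.0356. Adipocytes stood at 8.62% of the SVC level in EAT and 4.82% in IAT, with differences of -1.81 ± 0.110 (adjusted p = 4.8e-09) and -2.85 ± 0.110 (adjusted p = 5.4e-11). For Fgf9 these shares were 10.4% and 8.72%. The median fibroblast and progenitor marker stood in adipocytes at 3.38% of its SVC level in EAT and 3.37% in IAT. The shares were 16.9% and 19.7% for the median endothelial marker and 13.8% and 4.01% for the median macrophage marker. The cells from which Fgf7 and Fgf9 in adipocyte libraries came were not tested.

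Markers of several other cell types were higher in IAT than in EAT SVCs, as Fgf7 was. The 7 lymphocyte markers, of which 6 were called higher and 0 lower, summed to between 182 and 288 FPKM in IAT SVCs and 46.4 and 49.3 FPKM in EAT SVCs. The 7 Schwann cell markers, all called higher, summed to between 147 and 193 FPKM against 14.6 to 14.8 FPKM, and the 7 skeletal muscle markers, of which 6 were tested and called higher, to between 81.8 and 98.6 FPKM against 9.24 to 10.1 FPKM. Among the 8 fibroblast and progenitor markers 3 were called higher and 5 lower, with sums of 5364.2 to 5474.7 FPKM in IAT and 4567.8 to 5256.0 FPKM in EAT SVCs. The 7 endothelial markers, 4 called higher and 0 lower, summed to between 695 and 847 FPKM in IAT and 555 and 585 FPKM in EAT SVCs. The 7 markers of pericytes and smooth muscle, 3 called higher and 0 lower, summed to between 368 and 470 FPKM in IAT and 313 and 353 FPKM in EAT SVCs. Pvalb, a muscle marker, was listed at 0 in the 3 EAT SVC libraries, and no marker of these lists was at 0 in every IAT SVC library. Their part in the difference of Fgf7 was not tested.

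Fgf2, which encodes basic FGF, a growth factor of fibroblasts and vessel cells that is released without a signal peptide, had the widest standard error of the 10 on the scale of log2(FPKM + 1). In adipocytes it stood at 1.35, 6.38 and 4.86 FPKM in EAT and at 2.02, 2.99 and 2.96 FPKM in IAT. In SVCs it stood at 2.47, 2.91 and 1.57 FPKM in EAT and at 1.01, 0.985 and 1.21 FPKM in IAT. IAT SVCs were lowest and did not overlap with EAT SVCs or IAT adipocytes, but EAT adipocyte replicate 1 lay below every IAT adipocyte library while the other EAT adipocyte libraries lay above them. The difference between IAT adipocytes and IAT SVCs passed the test (log2 difference 0.81 ± 0.321, adjusted p = 0.0318), but its call was lost on leaving out any of 5 of the 6 libraries compared, with adjusted p-values of 0.052 to 0.0846. The depot differences did not pass, at -0.36 ± 0.321 in adipocytes (95% interval -1.06 to 0.34, adjusted p = 0.404) and -0.66 ± 0.321 in SVCs (95% interval -1.36 to 0.04, adjusted p = 0.124). The fraction difference in EAT was 0.51 ± 0.321 (adjusted p = 0.152). Without EAT adipocyte replicate 1 the depot difference in adipocytes was -0.86 (adjusted p = 0.00135) and the fraction difference in EAT 1.01 (adjusted p = 9.6e-05). With all libraries the latter was also called under quantile scaling (1.03, adjusted p = 0.00536), with array weights (1.01, adjusted p = 0.00171) and after median-of-ratios scaling (0.78, adjusted p = 0.0369). In that library Fgf2 lay 1.48 log2 units below the mean of replicates 2 and 3 (log2 difference -1.48), and 0.3% of features lay lower. The deposited confidence bounds imply 21 to 85 fragments for Fgf2 per EAT adipocyte library and 12 to 19 per IAT SVC library. Fgf2 overlaps Nudt6, a gene on the opposite strand, and the strandedness of the libraries was not given in the sources used here, so that reads from both genes cannot be told apart.

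Fgf10, which encodes a ligand of the epithelial form of FGFR2 that is needed for the formation of white adipose tissue and is better known from mesenchymal progenitors, was on the adipocyte side in both depots. It stood at 14.1, 15.1 and 13.9 FPKM in EAT adipocytes and at 13.8, 16.7 and 16 FPKM in IAT adipocytes. In SVCs it stood at 2.33, 2.02 and 2.3 FPKM in EAT and at 2.25, 2.35 and 2.38 FPKM in IAT. All 6 adipocyte libraries lay above all 6 SVC libraries, and the depots overlapped in both fractions. The mean was 6.48-fold higher in adipocytes than in SVCs of EAT (log2 difference 2.26 ± 0.080, adjusted p = 2.6e-11) and 6.67-fold higher in IAT (2.31 ± 0.080, adjusted p = 2.0e-11). The depot difference was 0.10 ± 0.080 in adipocytes (95% interval -0.07 to 0.28, adjusted p = 0.334) and 0.05 ± 0.080 in SVCs (95% interval -0.12 to 0.22, adjusted p = 0.655). After median-of-ratios scaling the difference in adipocytes was 0.24 with an adjusted p of 0.0249. SVC libraries held adipocyte markers at a median of 0.382% of the adipocyte level in EAT and 1.07% in IAT. Fgf10 in SVCs was at 15.4% of its adipocyte level in EAT and 15% in IAT, and the cells it came from were not tested.

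Fgf13, which encodes an intracellular FGF homologous factor, was even between the adipocytes of both depots and uneven between their SVCs. In adipocytes it stood at 12.9, 12.5 and 11.8 FPKM in EAT and at 13.4, 13 and 12.8 FPKM in IAT. In SVCs it stood at 0.175, 0.151 and 0.147 FPKM in EAT, from an estimated 6 to 11 fragments per library, and at 1.34, 1.59 and 1.47 FPKM in IAT. The adipocyte groups overlapped, and each IAT SVC library was above each EAT SVC library. The mean in SVCs was 9.31-fold higher in IAT (log2 difference 1.09 ± 0.066, adjusted p = 3.9e-08), and in adipocytes the difference was 0.07 ± 0.066 (95% interval -0.07 to 0.21, adjusted p = 0.43), or 0.21 after median-of-ratios scaling (adjusted p = 0.0399). Adipocytes were above SVCs by 3.53 ± 0.066 in EAT (adjusted p = 1.1e-13) and 2.51 ± 0.066 in IAT (adjusted p = 1.8e-12). Fgf13 in SVCs was at 1.27% of its adipocyte level in EAT and 11.2% in IAT, beside the 0.382% and 1.07% of the adipocyte markers. All 6 adipocyte markers were called higher in IAT than in EAT SVCs, with sums of 134 to 156 and 76.3 to 87.4 FPKM. The Schwann cell and skeletal muscle markers given for Fgf7 were higher there too, and the part of these cell types in the level of Fgf13 was not tested.

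Of 14 genes for subunits of voltage-gated sodium channels, to which FGF13 can bind, 4 passed the filter on low values. Scn7a, an atypical sodium channel of glia and some peripheral cells, was lower in IAT than in EAT adipocytes (log2 difference -0.65 ± 0.097, adjusted p = 2.2e-04) and higher in adipocytes than in SVCs of IAT (0.64 ± 0.097, adjusted p = 4.0e-05). The auxiliary subunit genes Scn3b and Scn4b were lower in adipocytes than in SVCs of both depots, by -1.59 ± 0.078 and -0.57 ± 0.055 in EAT (adjusted p = 6.2e-10 and 5.6e-07) and -0.66 ± 0.078 and -1.47 ± 0.055 in IAT (adjusted p = 4.1e-06 and 4.2e-11). Scn4b was, as Fgf13 was, higher in IAT than in EAT SVCs (0.92 ± 0.055, adjusted p = 3.7e-08). In adipocytes Scn4b stood at means of only 0.0151 FPKM in EAT and 0.0287 FPKM in IAT. On the scale of log2(FPKM + 1) a depot difference could not show at that level (0.02 ± 0.055, adjusted p = 0.819). Scn3b was lower in IAT SVCs (-1.36 ± 0.078, adjusted p = 2.5e-08).

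Fgf21, which encodes the endocrine FGF, was the 1 gene of the 10 called higher in IAT than in EAT adipocytes, to which median-of-ratios scaling added Fgf10 and Fgf13. It stood at 3.35, 3.09 and 3 FPKM in IAT adipocytes and at 1.81, 1.39 and 1.27 FPKM in EAT adipocytes. In SVCs it was at 0.105, 0.294 and 0.278 FPKM in EAT and at 0.271, 0.11 and 0.256 FPKM in IAT, from an estimated 2 to 9 fragments per library. Every IAT adipocyte library was above every EAT adipocyte library, and the SVC groups overlapped. The mean in adipocytes was 2.11-fold higher in IAT (log2 difference 0.74 ± 0.093, adjusted p = 5.6e-05). In SVCs the depot difference was -0.01 ± 0.093 (95% interval -0.22 to 0.19, adjusted p = 0.921), so that a difference was not detectable at this depth. Adipocytes were above SVCs by 1.02 ± 0.093 in EAT (adjusted p = 2.9e-07) and 1.78 ± 0.093 in IAT (adjusted p = 1.0e-09).

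Klb, which encodes beta-Klotho and with FGFR1 forms the receptor for FGF21, was high in adipocytes and barely detected in SVCs. It stood at 7.87, 12.6 and 11.8 FPKM in EAT adipocytes and at 8.61, 10.7 and 10.8 FPKM in IAT adipocytes. In SVCs it stood at 0.0985, 0.116 and 0.104 FPKM in EAT and at 0.159, 0.156 and 0.299 FPKM in IAT, from an estimated 8 to 30 fragments per library. The adipocyte groups overlapped, and the SVC groups did not. The adipocyte mean was 101-fold the SVC mean in EAT (log2 difference 3.38 ± 0.138, adjusted p = 9.9e-11) and 48.9-fold in IAT (3.19 ± 0.138, adjusted p = 1.7e-10). The depot difference was -0.07 ± 0.138 in adipocytes (95% interval -0.37 to 0.23, adjusted p = 0.718) and 0.12 ± 0.138 in SVCs (adjusted p = 0.533). Without EAT adipocyte replicate 1, the lowest adipocyte library, the difference in adipocytes was -0.26 (adjusted p = 0.0351). Klb in SVCs was at 0.99% of its adipocyte level in EAT and 2.04% in IAT, beside 0.382% and 1.07% for the median adipocyte marker. The other Klotho gene, Kl, was below 0.1 FPKM in every library.

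Of 10 genes known to regulate Fgf21 or to respond to its product, 2 were called higher and 3 lower in IAT than in EAT adipocytes. Over all features 37.6% were called there (10.3% higher and 27.3% lower). The median log2 difference of the 10 genes was -0.04, beside -0.10 over all features. After median-of-ratios scaling 3 were called higher and 2 lower, with a median of 0.10. Ppargc1a, a coactivator of mitochondrial genes that FGF21 can raise, was higher in IAT adipocytes (log2 difference 0.48 ± 0.069, adjusted p = 1.6e-04), as was the glucose transporter gene Slc2a1 (0.49 ± 0.094, adjusted p = 0.00149). Ddit3, a transcription factor gene of the integrated stress response, was lower (-1.0 ± 0.187, adjusted p = 0.00125), as were Trib3, a gene of the same response (-0.44 ± 0.104, adjusted p = 0.00513), and Adipoq, the adiponectin gene (-0.26 ± 0.091, adjusted p = 0.04). In IAT against EAT SVCs 4 of the 10 were called higher and 0 lower, where 40.2% of all features were called (14.0% higher and 26.2% lower). Among the 4 were Slc2a1 (0.56 ± 0.094, adjusted p = 4.3e-04) and Trib3 (0.57 ± 0.104, adjusted p = 7.7e-04), which was lower in IAT adipocytes. Between fractions 83.8% of all features were called in EAT (31.1% higher) and 83.7% in IAT (29.8% higher). The medians of the 10 genes were 1.22 in EAT and 1.31 in IAT, beside -0.31 and -0.34 over all features. Of the 10 genes 8 were higher and 2 lower in EAT adipocytes and 7 higher and 2 lower in IAT adipocytes. These included Adipoq, Pparg, the adipocyte nuclear receptor gene, and Mlxipl, which encodes the carbohydrate response factor ChREBP (Mlxipl at 4.38 ± 0.116 in EAT, adjusted p = 2.1e-12, and 4.56 ± 0.116 in IAT, adjusted p = 1.4e-12). Adipoq and Pparg are themselves genes that adipocytes are known by.

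Promoter windows of 4 ligand genes are printed because their transcripts divide between the fractions, Fgf21 and Fgf10 on the side of adipocytes and Fgf7 and Fgf9 on the side of SVCs. Each window holds the 250 bases before the RefSeq start in the build GRCm38.p6, 5′ to 3′ on the strand of the gene. Capitals mark matches on either strand to 7 motifs. These were TATAAA for the common core promoter box near the start, CACGTG for the E-box that is bound by ChREBP and related factors, and TTGCATCA for an amino acid response element of the stress factor ATF4. The others were AGGTCA for the half-site of nuclear receptors, TGACG for the half-site of the cyclic AMP response element, GGGCGG for the GC box bound by Sp factors, and CCAAT for the box of that name, bound by NF-Y. Windows of 8 of the 10 genes were searched for the motifs, all but those of Fgf1 and Fgfr1, and the Fgfr2 window held no match.
Fgf21 (chr7:45615491-45615740, minus strand): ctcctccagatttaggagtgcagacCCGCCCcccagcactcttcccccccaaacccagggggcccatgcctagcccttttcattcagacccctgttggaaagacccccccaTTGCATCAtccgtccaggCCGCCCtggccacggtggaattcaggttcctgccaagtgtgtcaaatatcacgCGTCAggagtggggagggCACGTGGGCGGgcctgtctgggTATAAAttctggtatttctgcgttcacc
Fgf10 (chr13:118714449-118714698, plus strand): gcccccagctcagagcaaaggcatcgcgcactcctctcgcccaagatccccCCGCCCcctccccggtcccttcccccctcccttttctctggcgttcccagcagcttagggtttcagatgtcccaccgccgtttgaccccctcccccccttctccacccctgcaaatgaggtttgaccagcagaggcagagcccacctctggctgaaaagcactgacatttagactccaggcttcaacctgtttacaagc
Fgf7 (chr2:126034408-126034657, plus strand): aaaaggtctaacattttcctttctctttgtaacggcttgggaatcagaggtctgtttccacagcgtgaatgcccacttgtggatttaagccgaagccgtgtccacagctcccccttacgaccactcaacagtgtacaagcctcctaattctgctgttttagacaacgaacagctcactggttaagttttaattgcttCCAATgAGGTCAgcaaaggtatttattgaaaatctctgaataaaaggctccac
Fgf9 (chr14:58072436-58072685, plus strand): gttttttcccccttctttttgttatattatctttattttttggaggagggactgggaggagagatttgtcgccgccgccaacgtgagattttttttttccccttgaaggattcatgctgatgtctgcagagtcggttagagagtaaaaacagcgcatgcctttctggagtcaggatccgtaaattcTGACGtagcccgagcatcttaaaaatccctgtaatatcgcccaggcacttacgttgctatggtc

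The Fgf21 window held TATAAA at bases 28 to 23 before the start, CACGTG at bases 50 to 45, CGTCA at bases 68 to 64, TTGCATCA at bases 139 to 132 and 3 GC boxes, of which the one at bases 45 to 40 shares its first base with CACGTG. Of 32851 RefSeq windows of the same length, 12.4% held TATAAA, 6.02% CACGTG, 17.8% TGACG and 0.791% TTGCATCA on either strand. The Fgf10 window held 1 GC box (32.7% of all windows held 1 or more). The Fgf7 window held CCAAT at bases 53 to 49 (33.8% of all windows) and AGGTCA at bases 47 to 42 (14%), with 1 base between them. The Fgf9 window held TGACG at bases 64 to 60. A match describes these letters and shows no binding. TGACG, on either strand, was found in the Fgf21 window of the adipocyte side and in the Fgf9 window of the SVC side. The GC box was found in both the Fgf21 and Fgf10 windows, and no motif in both the Fgf21 and Fgf7 windows.

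Fgfr1, which encodes the main FGF receptor of mesenchymal cells and adipocytes, was the highest of the 10 genes in each of the 4 groups. It stood at 46.9, 55.3 and 55.1 FPKM in EAT adipocytes and at 49.2, 52.9 and 54.7 FPKM in IAT adipocytes. In SVCs it stood at 59.8, 68.2 and 58.9 FPKM in EAT and at 38.9, 36.3 and 37.3 FPKM in IAT. The adipocyte groups overlapped, EAT SVCs lay above them and IAT SVCs below them. The depot difference was -0.00 ± 0.085 in adipocytes (95% interval -0.19 to 0.18, adjusted p = 0.988) and -0.71 ± 0.085 in SVCs (adjusted p = 2.2e-05), where the mean was 1.66-fold lower in IAT. In IAT adipocytes were 1.39-fold above SVCs (log2 difference 0.47 ± 0.085, adjusted p = 2.0e-04). In EAT they were below them by a small margin (-0.25 ± 0.085, adjusted p = 0.0167), which changed sign to 0.14 after median-of-ratios scaling (adjusted p = 0.114) and was not called without EAT SVC replicate 2 (-0.18, adjusted p = 0.0746).

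Fgfr2, which encodes the receptor whose epithelial form binds FGF7 and FGF10, was far below Fgfr1 in every library and lower in IAT in both fractions. It stood at 2.05, 1.86 and 2.35 FPKM in EAT adipocytes and at 1.53, 1.49 and 1.34 FPKM in IAT adipocytes. In SVCs it stood at 1.5, 1.35 and 1.36 FPKM in EAT and at 0.77, 0.743 and 0.57 FPKM in IAT. Depots did not overlap within a fraction, and adipocytes lay above SVCs of the same depot except that IAT adipocytes and EAT SVCs, which differ in both, overlapped. The depot difference was -0.33 ± 0.075 in adipocytes (adjusted p = 0.00457) and -0.50 ± 0.075 in SVCs (adjusted p = 1.6e-04), and that in adipocytes was -0.19 under quantile scaling (adjusted p = 0.0739). Adipocytes were above SVCs by 0.36 ± 0.075 in EAT (adjusted p = 6.1e-04) and 0.54 ± 0.075 in IAT (adjusted p = 2.0e-05). The tables give a gene total, so the epithelial and mesenchymal splice forms cannot be told apart. The 7 epithelial markers summed to 0.43 to 0.548 FPKM in EAT and 0.211 to 0.389 FPKM in IAT adipocytes, and to 5.34 to 8.14 FPKM in EAT and 3.19 to 4.19 FPKM in IAT SVCs.

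Of 4 other receptor and co-receptor genes, Fgfr3 and Fgfrl1 passed the filter and Fgfr4 and Kl did not. Fgfrl1, which encodes a receptor without a kinase domain, stood at 116, 122 and 122 FPKM in EAT adipocytes, 103, 110 and 111 FPKM in IAT adipocytes, 5.78, 6.96 and 5.33 FPKM in EAT SVCs and 6.58, 7.31 and 6.59 FPKM in IAT SVCs. In adipocytes it was thus above Fgfr1, and the log2 difference to SVCs was 4.11 ± 0.085 in EAT (adjusted p = 2.3e-13) and 3.80 ± 0.085 in IAT (adjusted p = 5.2e-13). Fgfr3 was on the side of SVCs, at means of 2.97 FPKM in EAT and 4.06 FPKM in IAT SVCs and 0.558 and 0.547 FPKM in the adipocytes (adjusted p = 6.0e-10 and 5.8e-11 for the fraction difference).

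**Figure D3:**
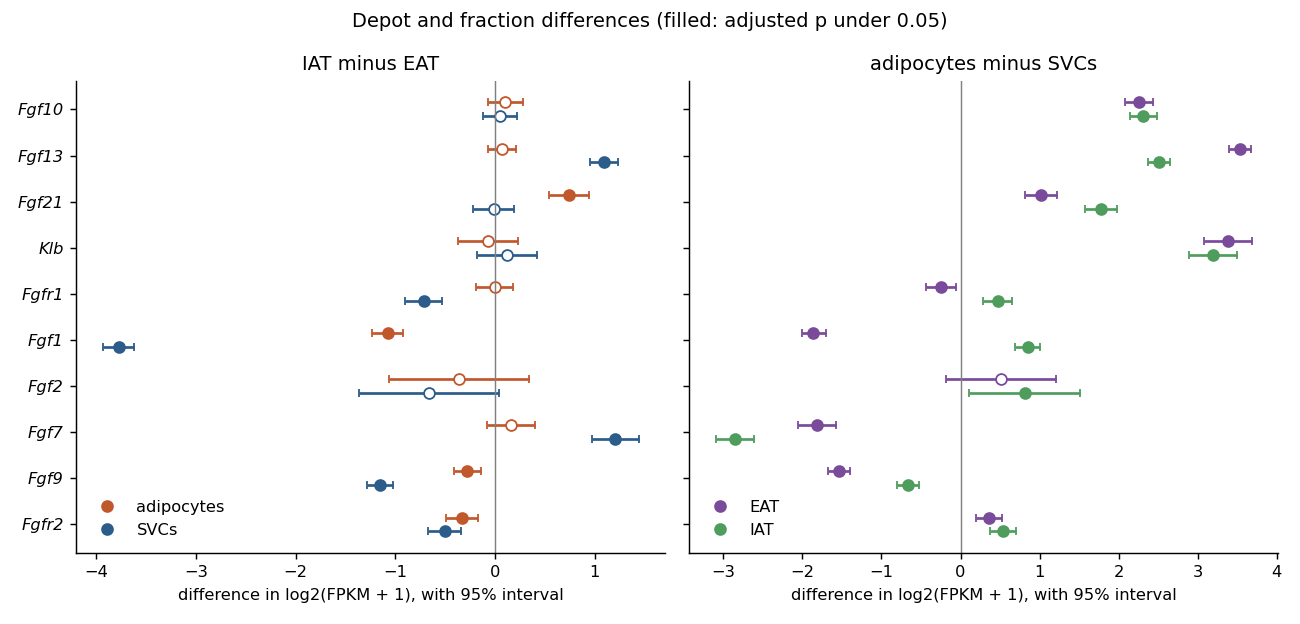
Difference in log2(FPKM + 1) of each gene with its 95% interval, between depots (IAT minus EAT, left) and between fractions (adipocytes minus SVCs, right), with filled points for an adjusted p under 0.05. Fgf1 lay at -3.77 in SVCs and -1.07 in adipocytes, and on opposite sides of 0 in the fraction comparisons of EAT and IAT.

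Depot differences were compared between fractions by the interaction, the depot difference in adipocytes minus that in SVCs. It was called for 6 of the 10 genes, 4 above 0 and 2 below, where 32.5% of all tested features were called (14.7% above 0 and 17.8% below). Fgf1 (2.70 ± 0.101, adjusted p = 1.2e-09), Fgf9 (0.87 ± 0.087, adjusted p = 8.4e-06) and Fgfr1 (0.71 ± 0.120, adjusted p = 6.3e-04) were above 0, and each was lower in IAT than in EAT SVCs. For Fgf9 this rested on the scale of log2(FPKM + 1) with levels under 0.3 FPKM in adipocytes: the mean was 4.77-fold lower in IAT adipocytes and 4.02-fold lower in IAT SVCs, and at a pseudocount of 0.1 the interaction was 0.59 and not called (adjusted p = 0.0586). Fgf21 was above 0 (0.76 ± 0.131, adjusted p = 7.9e-04), with its depot difference in adipocytes. In SVCs Fgf21 was under 0.3 FPKM, from an estimated 2 to 9 fragments per library, where this scale understates a depot difference. Fgf13 (-1.02 ± 0.093, adjusted p = 3.7e-06) and Fgf7 (-1.04 ± 0.155, adjusted p = 2.4e-04) were below 0, with their depot difference in SVCs. For Fgf2, Fgf10, Fgfr2 and Klb the interaction did not pass the test, at 0.30 ± 0.454 (adjusted p = 0.661), 0.05 ± 0.113 (adjusted p = 0.768), 0.18 ± 0.106 (adjusted p = 0.235) and -0.19 ± 0.195 (adjusted p = 0.493).

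The make-up of FGF ligand transcripts differed between the groups. The 22 genes counted here as ligand genes include intracellular factors, among them Fgf11 and Fgf13, so their sum is not of secreted ligands alone. Summed over 22 ligand genes, the level was 55.4 ± 3.73 FPKM (SD, n = 3) in EAT adipocytes, 47.9 ± 2.1 FPKM in IAT adipocytes, 75.5 ± 2.88 FPKM in EAT SVCs and 25.4 ± 2.76 FPKM in IAT SVCs. In EAT SVCs Fgf1 made up 67.4% ± 0.903 of that sum, and in IAT SVCs Fgf7 made up 37.9% ± 2.55, Fgf18 16.4% ± 1.8 and Fgf1 11.1% ± 1.15. In EAT adipocytes Fgf10 held 26% ± 1.52, Fgf1 24.1% ± 0.914 and Fgf13 22.5% ± 2.38. In IAT adipocytes Fgf10 held 32.3% ± 1.77, Fgf13 27.3% ± 1.76 and Fgf1 12.1% ± 0.199. The share of Fgf21 was 2.72% ± 0.712 in EAT and 6.58% ± 0.646 in IAT adipocytes. Fgf11 held 15.4% ± 1.14 in EAT and 13.9% ± 0.3 in IAT adipocytes, and 3.16% ± 0.239 in EAT and 8.58% ± 0.657 in IAT SVCs. Fgf13 held 0.209% ± 0.0258 in EAT and 5.79% ± 0.227 in IAT SVCs. Of the 15 other ligand genes listed, 13 were under 1 FPKM in all 12 libraries. Fgf11, an intracellular factor like Fgf13, was higher in adipocytes than in SVCs (log2 difference 1.49 ± 0.082 in EAT, adjusted p = 1.9e-09, and 1.27 ± 0.082 in IAT, adjusted p = 9.1e-09). Fgf18, a ligand gene of skeletal and lung growth, was lower in adipocytes (-2.92 ± 0.106 in EAT, adjusted p = 3.4e-11, and -2.17 ± 0.106 in IAT, adjusted p = 5.8e-10) and lower in IAT than in EAT SVCs (-1.03 ± 0.106, adjusted p = 6.6e-06).

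**Figure D4:**
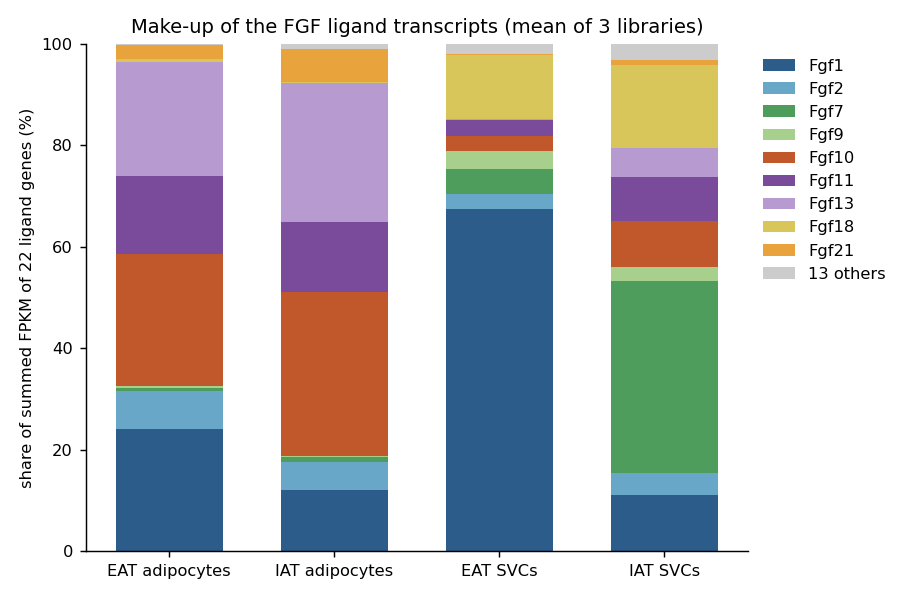
Share of each ligand gene in the summed FPKM of 22 FGF ligand genes, in percent, as the mean of 3 libraries in each group. Fgf1 made up 67.4% in EAT SVCs, Fgf7 37.9% in IAT SVCs, and Fgf10 and Fgf13 were the leading shares in IAT adipocytes. The 22 genes include intracellular factors, among them Fgf11 and Fgf13.

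Heparan sulfate, which holds paracrine FGFs to their receptors, is carried by syndecans and glypicans and trimmed by modifying enzymes, and of 22 such genes 19 were tested. In IAT against EAT 0 were called higher and 8 lower in adipocytes, and 0 higher and 14 lower in SVCs, where 27.3% and 26.2% of all features were lower, with median log2 differences of -0.25 and -0.56 beside -0.10 and -0.06 over all features. After median-of-ratios scaling the counts were 1 higher and 7 lower in adipocytes and 2 higher and 12 lower in SVCs, and without EAT adipocyte replicate 1 they were 0 higher and 14 lower in adipocytes. The glypican genes Gpc3 and Gpc6 were lower in IAT than in EAT SVCs, at -1.34 ± 0.082 (adjusted p = 4.4e-08) and -0.91 ± 0.070 (adjusted p = 3.8e-07), as was Sulf2, an enzyme that removes sulfate from heparan sulfate (-1.42 ± 0.127, adjusted p = 1.7e-06). The sums of the mesothelial and macrophage markers given for Fgf1 were lower in IAT too, and the part of these cell types in these counts was not tested. In adipocytes against SVCs 3 were higher and 15 lower in EAT and 4 higher and 14 lower in IAT, where 52.7% and 53.9% of all features were lower. Gpc3 stood at a mean of 2.86 FPKM in EAT adipocytes and 126 FPKM in EAT SVCs. Gpc4 and Gpc1 were among the exceptions between fractions, at 33.6 and 12.6 FPKM in EAT adipocytes and 9.92 and 2.02 FPKM in EAT SVCs. Both were lower in IAT than in EAT adipocytes (-0.72 ± 0.068, adjusted p = 5.0e-06, and -0.25 ± 0.090, adjusted p = 0.042). Among 8 genes for other binding partners 4 were tested, and Flrt2, which encodes a membrane protein that binds FGF receptors, was lower in IAT than in EAT SVCs (-1.32 ± 0.075, adjusted p = 2.1e-08) and in adipocytes than in SVCs of EAT (-3.34 ± 0.075, adjusted p = 4.8e-13).

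Of 19 feedback regulators and transcriptional targets of FGF and ERK signalling 18 were tested, and 4 were called higher and 7 lower in IAT than in EAT adipocytes, and 3 higher and 9 lower in IAT than in EAT SVCs, where 37.6% and 40.2% of all features were called. The medians were -0.11 and -0.40, beside -0.10 and -0.06 over all features. Etv5 and Etv4, ETS factor genes that ERK signalling induces, were lower in IAT SVCs by -0.78 ± 0.092 (adjusted p = 2.2e-05) and -0.67 ± 0.053 (adjusted p = 5.1e-07), and Etv5 also in IAT adipocytes (-0.76 ± 0.092, adjusted p = 4.3e-05). Il17rd, a receptor-like inhibitor of FGF signalling, was lower in IAT SVCs (-0.64 ± 0.067, adjusted p = 7.2e-06). Myc, a target of many growth signals, went the other way in adipocytes, at means of 92 FPKM in EAT and 169 FPKM in IAT (0.88 ± 0.086, adjusted p = 6.7e-06). Fos and Egr1, also on this list, stood at group means of 932 to 1743 FPKM and 757 to 1116 FPKM. The cells had been separated with collagenase I, and the part of that step in the levels and counts of this list was not tested. Between fractions 2 were higher and 15 lower in EAT adipocytes and 0 higher and 15 lower in IAT adipocytes, where 52.7% and 53.9% of all features were lower, and under median-of-ratios scaling, where 17 were tested, 2 higher and 12 lower in EAT and 3 higher and 10 lower in IAT. Spry1, an inhibitor of RAS activation by receptor kinases, was lower in adipocytes by -2.99 ± 0.089 in EAT (adjusted p = 5.6e-12) and -2.74 ± 0.089 in IAT (adjusted p = 1.1e-11), and the ERK phosphatase gene Dusp5 by -3.63 ± 0.133 and -3.42 ± 0.133 (adjusted p = 3.8e-11 and 6.0e-11).

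All 20 genes listed from the adaptor FRS2 to ERK and PI3 kinase were tested. Between depots 1 was called higher and 5 lower in IAT adipocytes, where 37.6% of all features were called, and 1 higher and 6 lower in IAT SVCs, where 40.2% were called. The medians were -0.17 and -0.15, beside -0.10 and -0.06 over all features. After median-of-ratios scaling the counts were 2 higher and 1 lower in adipocytes and 2 higher and 3 lower in SVCs, and without EAT adipocyte replicate 1 they were 3 higher and 9 lower in adipocytes. The interaction was called for 1 gene above 0 and 1 below. Gab1, an adaptor that brings PI3 kinase to FGF receptors, was lower in IAT in both fractions (-0.27 ± 0.070 in adipocytes, adjusted p = 0.00881, and -0.54 ± 0.070 in SVCs, adjusted p = 4.9e-05). Between fractions 3 were higher and 11 lower in EAT adipocytes and 4 higher and 12 lower in IAT adipocytes, where 83.8% and 83.7% of all features were called, a split that rested on the scaling, since median-of-ratios scaling gave 8 higher and 7 lower in EAT and 8 higher and 5 lower in IAT.

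**Figure D5:**
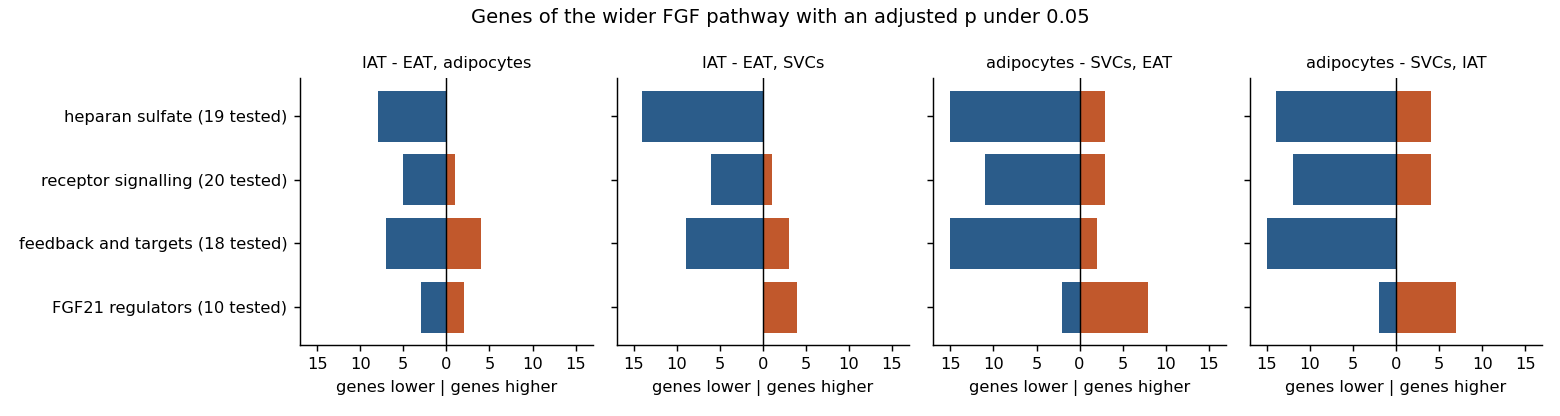
Number of genes called lower (bars to the left) and higher (bars to the right) at an adjusted p under 0.05 in 4 lists of the FGF pathway, in each comparison. In IAT SVCs 14 of 19 heparan sulfate genes were lower than in EAT SVCs and 0 higher, where 26.2% of all features were lower. In IAT adipocytes 15 of 18 feedback and target genes were lower than in SVCs and 0 higher, where 53.9% of all features were lower. After median-of-ratios scaling the counts were 12 lower and 2 higher, and 10 lower and 3 higher of 17 tested.

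The tested genes whose level moved most like each of the 10 over the 12 libraries were found by the root mean square (RMS) difference of their centred log2(FPKM + 1) values. The nearest to Klb was Ucp3, a mitochondrial carrier gene (RMS difference 0.117), the nearest to Fgf21 was Lmo4 (0.088), and the nearest to Fgf10 was Ppp1r3c, a glycogen-targeting subunit gene (0.101). For Fgf7 the nearest were Siglecg (0.096) and Icos (0.098), genes known from lymphocytes, with Icos at means of 7.55 FPKM in IAT SVCs and 3.1 FPKM in EAT SVCs. The nearest to Fgf9 was F5, the coagulation factor V gene (0.103), and to Fgf13 Tmeff1 (0.163). For Fgfr1 it was Eml2 (0.074), for Fgfr2 Arl8b (0.097) and for Fgf2 Rnf141 and Xpnpep3 (both 0.208). The nearest to Fgf1, Ugt1a6a, lay at the widest distance of the 10 nearest genes, 0.392, with means of 28.6 FPKM in EAT SVCs and 2.6 FPKM in IAT SVCs.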

How the data were processed

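Gene values were taken from 12 tables, 1 per library, in which the authors deposited FPKM with lower and upper confidence bounds for 24890 features under 24358 symbols. Per the submitters' processing notes, TopHat, Cufflinks and the mouse build GRCm38 (mm10) were used. Versions, the annotation, read length and strandedness are not given in the sources used here. The tables hold no read counts, and the fragments behind a value were estimated from its bounds, taking the half-width as 2 SD of a Poisson count, which covers counting error only. FPKM scales each library by its total, so that a few very abundant transcripts in a fraction can lower all others.

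From these, log2(FPKM + 1) was computed and features were kept where 3 or more of the 12 libraries reached 1 FPKM. The 13175 kept were fitted with limma 3.58.1 in R 4.3.3 (lmFit, then eBayes with a trend) as 4 group means, leaving out 9 features with a failed estimate. All tests were two-sided, with Benjamini-Hochberg adjustment over all features in each of 5 contrasts. Exon lengths came from GENCODE vM21. Alternatives were pseudocounts of 0.1 and 0.5, 2 other filters, median-of-ratios and quantile scaling, TPM, array weights, no trend, the compared groups alone, a replicate block and leaving out each library. Plots were drawn with matplotlib 3.10.9 in Python 3.11.15. The fit was tested on simulated data. Promoter sequences are from RefSeq.

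The named genes were the 10 genes, up to 3 called genes with the smallest p in each pathway list and contrast, and the 2 tested genes nearest to each of the 10 by RMS difference, leaving out predicted models. Examples were drawn from these, and a few marker genes, Kl, Gpc1, Fos and Egr1 were named for their level. The genes and lists were chosen with earlier results of these data known. Some genes of the lists are not reported here by name.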

Additional observations from a re-analysis of the deposited data

Results flagged for a closer look

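For 6 of the 10 genes the depot difference in adipocytes differed from that in SVCs by limma's test of the interaction, the first minus the second on the scale of log2(FPKM + 1), where 32.5% of all tested features were called. The interaction was 2.70 for Fgf1, 0.87 for Fgf9 and 0.71 for Fgfr1, whose IAT level lay below the EAT level in SVCs by 3.77 (log2 difference -3.77), 1.15 (-1.15) and 0.71 (-0.71). For Fgf9 the mean in adipocytes was 4.77-fold lower in IAT, beside 4.02-fold in SVCs, and the call was lost at a pseudocount of 0.1 (0.59, adjusted p = 0.0586). The interaction of Fgf21 was 0.76, and its depot difference was called in adipocytes and not in SVCs. Fgf21 in SVCs rested on an estimated 2 to 9 fragments per library, and its interaction stayed called in all 22 alternatives, with an adjusted p of up to 0.0495. The interaction was -1.04 for Fgf7 and -1.02 for Fgf13, which were higher in IAT in SVCs, at 1.20 and 1.09, and not called between depots in adipocytes. Groups of 3 libraries were too small for a test of single libraries that stand apart.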

How the results depend on the processing

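For the 10 genes in 5 contrasts, 886 alternative values were computed: 859 kept their side of the threshold, 12 lost their call, 14 gained one and 1 called value changed sign. Among the 859, 12 values that were not called changed sign: the interaction of Fgf2 (0.30, down to -0.20), and the depot differences of Klb in adipocytes (-0.07, up to 0.06) and of Fgf10 (0.05, down to -0.03) and Fgf21 (-0.01, up to 0.06) in SVCs. That of Fgfr1 in adipocytes, -0.00, ran from -0.08 to 0.14. The called value that changed sign was Fgfr1 between adipocytes and SVCs of EAT, at 0.14 after median-of-ratios scaling (adjusted p = 0.114) beside -0.25 in FPKM. The same value lost its call with array weights (-0.15, adjusted p = 0.0965), in TPM (-0.19, adjusted p = 0.167) and in a fit on the compared groups (-0.25, adjusted p = 0.0625). The interaction of Fgf9 lost its call at a pseudocount of 0.1 (0.59, adjusted p = 0.0586). The depot difference of Fgf2 in SVCs gained one with array weights (-0.64, adjusted p = 0.00753) and in a fit on the compared groups (-0.66, adjusted p = 0.00389). The interaction of Klb gained one without EAT adipocyte replicate 1 (-0.38, adjusted p = 0.0292). The cause was not tested. Leaving out 1 library gave 4 to 6 of the 10 called between depots in adipocytes, 5 to 6 in SVCs, 7 to 10 between fractions in EAT, 9 to 10 in IAT and 5 to 7 in the interaction. Over all features it gave 3678 to 6476, 4053 to 4593, 10367 to 11194, 10495 to 10638 and 3342 to 5263 calls, beside 4960, 5301, 11041, 11028 and 4281 with all libraries. Deviations from the group means correlated at r = -0.312 to 0.373 over 18 pairs of libraries with the same replicate number (median 0.034). Over the 36 pairs with different numbers r was -0.459 to 0.367 (median 0.016). With 3 libraries per group these values cannot decide whether the numbers pair libraries, and the labels do not say. With the replicate block 4796, 5205, 11037, 11010 and 4114 features were called, and no call of the 10 genes changed. Depth limits Fgf2 in both fractions, Fgf7 and Fgf9 in adipocytes, and Fgf13, Fgf21 and Klb in SVCs.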
